A study of Mus musculus with 4 samples.

Results

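The receptors, ligands, DNA-binding factor and Hes and Hey target genes of the Notch pathway were examined in primary mouse neural stem/progenitor cells (NSCs). They were picked by gene name, with earlier results of these data known, as 10 of the 18169 rows of the expression table. All 10 passed the minimum mean of 1 TPM that was set for testing. TPM (transcript abundance scaled for length, such that all genes of a sample add to a fixed total) was the unit of the table. RNA-seq had been made from 2 +/+ and 2 Chd5-/- cultures of C57BL/6 background, each grown from the periventricular region, which holds the ventricular and subventricular zones, of an individual newborn brain. Chd5-/- mice lack Chd5, a chromatin remodeler. All 4 cultures were kept undifferentiated in serum-free medium with epidermal growth factor and fibroblast growth factor 2. All donors were at postnatal day 1 according to the growth protocol, but the age entries of the labels run from day 1 to day 2 among +/+ and from day 3 to day 4 among Chd5-/- donors, and by these entries age and genotype cannot be told apart. Such cultures model NSCs outside their niche and under growth factors, and each value is an average over all cells of a culture.

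Notch receptors are single-pass membrane proteins that are activated by Delta-like (Dll) and Jagged (Jag) ligands on a neighbouring cell. Binding of the ligand allows an ADAM protease and then the gamma-secretase complex to cut the receptor, and the freed intracellular domain joins Rbpj on DNA and turns on Hes and Hey genes. Hes and Hey proteins are repressors of proneural genes, and proneural factors in turn drive Dll1, so that neighbouring progenitors can hold each other in different states. In the newborn subventricular zone the pathway is known for keeping stem cells from differentiating.

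The targeted gene was low in every sample, with 0.39 and 0.37 TPM of Chd5 in +/+ cultures against 0.06 and 0.04 TPM in Chd5-/- cultures. It was below the minimum for testing, and the genotypes did not overlap. The 20 most abundant rows took 32.4% to 35.6% of the TPM of +/+ cultures but 21.6% to 22.8% of those of Chd5-/- cultures. The median difference between genotypes over all 12576 rows tested was 0.34 in log2(TPM + 1) as deposited, and -0.032 after median-of-ratios scaling, which sets the typical row equal between samples. Differences below are of group means of log2(TPM + 1), Chd5-/- minus +/+, and are best read against 0.34. Tests were made with limma over all rows, with Benjamini-Hochberg adjustment. The p-values rest on the spread between 2 cultures per genotype, with the variance of each row drawn toward a trend over all rows tested. TPM keep no record of read numbers, so the depth behind each value is unknown.

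Levels were compared between genes in TPM, which are per length. In +/+ NSCs the members had a wide range of levels. Rbpj (51.4 ± 0.721 TPM, SD, n = 2), Hey1 (50.5 ± 9.97 TPM) and Hes1 (42.7 ± 4.88 TPM) were highest, with neighbouring ranges that overlapped. Jag1 followed at 30.2 ± 9.78 TPM and was apart from both Hes1 above it and Notch1 below it. The next was Notch1 at 10.2 ± 0.141 TPM, again apart from its neighbours. Dll1 (7.60 ± 2.66 TPM), Hes5 (5.83 ± 3.81 TPM) and Notch3 (4.97 ± 0.127 TPM) could not be ordered, since their ranges overlapped. Notch2 (3.24 ± 0.134 TPM) and Dll3 (2.29 ± 0.523 TPM) were lowest. Of the members, Jag1 was thus the ligand and Notch1 the receptor with the highest level in both +/+ cultures. In Chd5-/- NSCs no pair of neighbours in the order of levels was apart, because the ranges of the 2 samples were wide. Rbpj (61.4 ± 2.79 TPM) and Hey1 (51.5 ± 39.3 TPM) again came highest and Dll3 (4.25 ± 3.18 TPM) lowest, whereas Jag1 (11.2 ± 3.28 TPM) came after Hes5 (22.4 ± 30.1 TPM), Dll1 (20.1 ± 19.6 TPM) and Notch1 (16.8 ± 10.6 TPM).

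**Figure D1:**
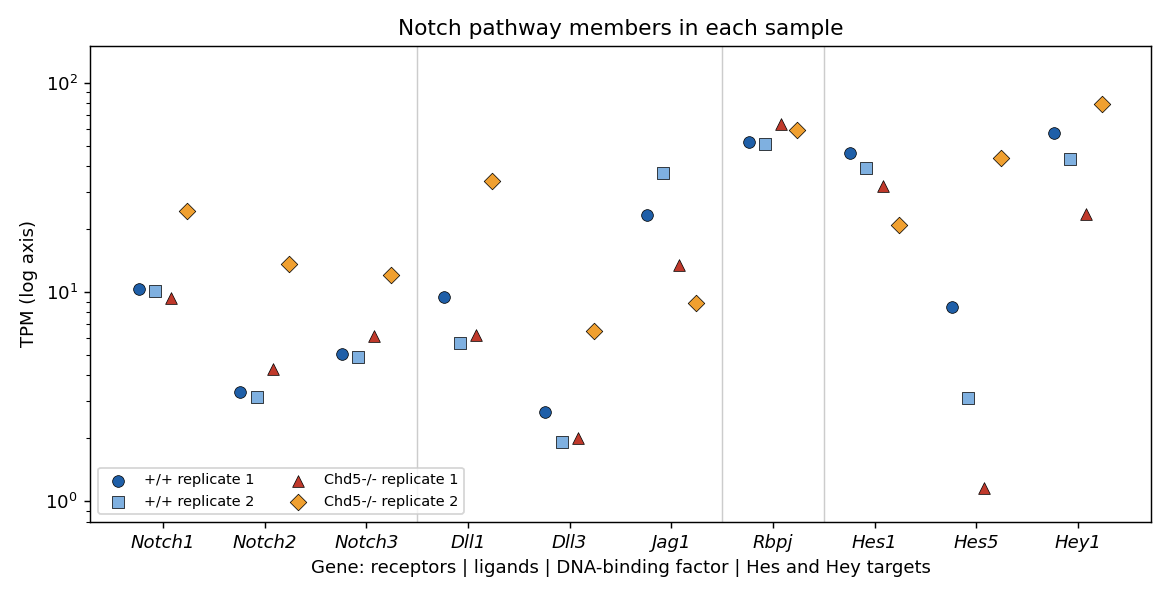
TPM of the 10 Notch pathway members in each of the 4 samples, on a log axis, with 1 point per sample and genes ordered by role. Chd5-/- replicate 2 is the highest point for 7 genes, among them Hes5 at 43.69 TPM, and Chd5-/- points lie below both +/+ points for Jag1 and Hes1.

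No member passed the test between genotypes. With limma, 0 of the 10 members passed an adjusted p-value of 0.05 (adjusted p from 0.131 to 0.853), where 0.0557% of all rows did. At an unadjusted p-value under 0.05 there was 1 member, Jag1, where 24.1% of all rows stood. The genotypes did not overlap for 5 of the 10 members, against 59.4% of all rows. Of these, Notch2, Notch3 and Rbpj were higher in both Chd5-/- samples (46.3% of all rows were) and Jag1 and Hes1 lower (13% of all rows). After median-of-ratios scaling 0 members were higher without overlap (28.3% of all rows) and 3 were lower, namely Jag1, Hes1 and Rbpj (32% of all rows). These shares do not set the members apart from the other rows. Without Chd5-/- replicate 1 the differences of Notch2, Dll1 and Hes5 were 1.79, 2.06 and 2.83, where the median of all rows was 0.35. The median difference of the members was 0.53 as deposited, and it was -0.36 after trends with GC content and transcript length were removed from each sample. All members were protein-coding genes, and their median transcript GC content was 54.3%, against 49.2% for the rows tested, over which higher GC content went with higher differences between genotypes (Spearman's rho = 0.60 across 12103 rows, given as a description).

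**Figure D2:**
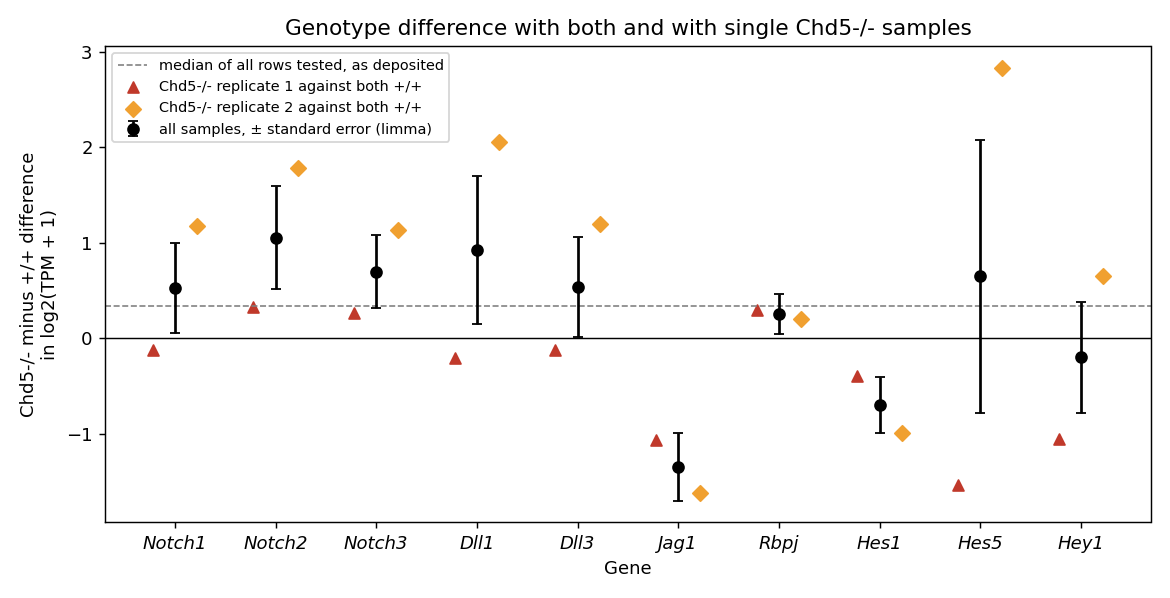
Difference between Chd5-/- and +/+ in log2(TPM + 1) for each member, with both Chd5-/- samples (black, limma estimate ± standard error) and with only 1 of them (red, replicate 1; orange, replicate 2). The single-sample values of Hes5 lie at -1.54 and 2.83, whereas those of Jag1 and Hes1 are both below 0, and the dashed line is the median of all rows, 0.34.

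The receptors bind ligands on adjacent cells and carry the signal to the nucleus. Notch1 (chromosome 2 of GRCm38, 26457903 to 26516663, minus strand), the receptor most studied in NSC maintenance, stood at 10.32 and 10.12 TPM in +/+ NSCs, and at 9.33 and 24.33 TPM in Chd5-/- NSCs. Notch2 (chromosome 3, 98013527 to 98150361, plus strand), known for its part in the quiescence of adult NSCs, measured 3.33 and 3.14 TPM in +/+ cultures, compared with 4.30 and 13.61 TPM in Chd5-/- cultures. Notch3 (chromosome 17, 32120820 to 32166852, minus strand), which is also the receptor of vascular mural cells, had 5.06 and 4.88 TPM in +/+ cultures against 6.17 and 12.10 TPM in Chd5-/- cultures. The +/+ samples were nearly alike in all 3 receptors, and Chd5-/- replicate 2 alone was far above the others. Summed over the 3 receptors, +/+ cultures had 18.71 and 18.14 TPM against 19.80 and 50.04 TPM of Chd5-/- cultures. The differences between genotypes were 0.53 for Notch1 (standard error 0.47, adjusted p = 0.519 with limma), 1.06 for Notch2 (standard error 0.53, adjusted p = 0.290 with limma) and 0.70 for Notch3 (standard error 0.38, adjusted p = 0.322 with limma). None of them passed the test. With Chd5-/- replicate 1 alone against both +/+ samples the differences were -0.12, 0.32 and 0.26 in the same order, all below the median of all rows. With trends in GC content and length removed, Notch1 was at -0.36, Notch2 at 0.35 and Notch3 at -0.28.

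Of the 3 member ligands, Jag1 had no overlap between genotypes. Jag1 (chromosome 2, 137081456 to 137116644, minus strand), the Jagged ligand of the neural stem cell niche, stood at 23.27 and 37.10 TPM in +/+ NSCs, and at 13.52 and 8.88 TPM in Chd5-/- NSCs. Both Chd5-/- samples were lower than both +/+ samples, and the mean was 2.70-fold lower. The difference of -1.34 (standard error 0.35, unadjusted p = 0.0115, adjusted p = 0.131 with limma) had the lowest p-value of the members and did not pass after adjustment. It kept its direction under every alternative tried, from -1.76 after quantile normalization to -1.02 without +/+ replicate 2, where the unadjusted p from limma was 0.0873. Endothelial cells also make Jag1, and of their listed markers with a row only Flt1 was lower in both Chd5-/- cultures. Flt1 had 4.29 and 19.45 TPM in +/+ cultures against 1.02 and 0.69 TPM in Chd5-/- cultures. The summed TPM over the 3 of 5 listed genes that had a row were mostly Flt1. These sums were 4.91 and 19.60 for +/+ cultures against 1.72 and 1.12 for Chd5-/- cultures. The defining endothelial genes Pecam1 and Kdr were under 1 TPM in all 4 samples, overlapped between genotypes and had higher means in Chd5-/- cultures. Cdh5 and Cldn5 were not analysed here, and the part of such cells in the Jag1 difference was not tested. In bulk samples, fewer cells of a type and less RNA per cell cannot be told apart.

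Dll1 (chromosome 17, 15367354 to 15376872, minus strand), the Delta-like ligand shown by progenitors on their way to differentiation, measured 9.48 and 5.72 TPM in +/+ cultures, compared with 6.26 and 33.95 TPM in Chd5-/- cultures. Dll3 (chromosome 7, 28293553 to 28302238, minus strand), a ligand-like protein that does not activate receptors on adjacent cells, had 2.66 and 1.92 TPM in +/+ cultures against 2.00 and 6.50 TPM in Chd5-/- cultures. In both genes Chd5-/- replicate 1 lay within the range of the +/+ samples and replicate 2 above it. The differences were 0.92 for Dll1 (standard error 0.77) and 0.54 for Dll3 (standard error 0.52), with adjusted p-values of 0.493 and 0.553 from limma. With Chd5-/- replicate 1 alone they were -0.21 and -0.12.

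The balance of the ligands can be read within each sample, where scaling between samples has no effect. Jag1 was 2.45-fold and 6.49-fold above Dll1 in the +/+ samples and 2.16-fold above it in Chd5-/- replicate 1, whereas Dll1 was 3.82-fold above Jag1 in Chd5-/- replicate 2. On the log2 scale the ratio of Dll1 to Jag1 was higher in both Chd5-/- samples, by 2.41 on average (pooled SD 1.68), but it was higher by only 0.89 without replicate 2 of that genotype. The exact two-sided permutation p was 0.333, the smallest that 2 samples against 2 can give. A more even pattern was seen for the receptors. Notch1 was 3.10-fold and 3.22-fold above Notch2 in the +/+ samples and 2.17-fold and 1.79-fold above it in the Chd5-/- samples. The difference of -0.68 in the log2 ratio was larger than the spread between replicates (pooled SD 0.14), with an exact permutation p of 0.333 as well, and it ranged from -0.82 to -0.54 with 1 sample left out. With a pseudocount of 1 the difference was -0.53.

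Rbpj (chromosome 5, 53466152 to 53657362, plus strand), the DNA-binding partner of all Notch receptors, which represses targets in their absence, stood at 51.87 and 50.85 TPM in +/+ NSCs, and at 63.37 and 59.42 TPM in Chd5-/- NSCs. It was the most even member, with Chd5-/- replicates that differed by 1.07-fold. Both Chd5-/- values were above both +/+ values as deposited, with a difference of 0.25 (standard error 0.21, adjusted p = 0.489 with limma). This difference was below the median of all rows and became -0.16 after median-of-ratios scaling, so no direction can be given for Rbpj.

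The 3 Hes and Hey targets, which encode basic helix-loop-helix repressors, differed from each other in pattern. Hes1 (chromosome 16, 30064384 to 30067796, plus strand), the repressor whose oscillation accompanies proliferation of progenitors, measured 46.10 and 39.20 TPM in +/+ cultures, compared with 32.01 and 20.87 TPM in Chd5-/- cultures. Both Chd5-/- samples were lower, by 1.61-fold in the means. The difference was -0.70 (standard error 0.29, unadjusted p = 0.0610, adjusted p = 0.225 with limma). It stayed below 0 in every alternative, from -1.21 (unadjusted p = 0.00394 with limma) with GC and length trends removed to -0.40 without Chd5-/- replicate 2. After median-of-ratios scaling it was -1.10 (unadjusted p = 0.0114 with limma). Hey1 (chromosome 3, 8663359 to 8667256, minus strand), a target and repressor of the related Hey family, had 57.51 and 43.41 TPM in +/+ cultures against 23.64 and 79.28 TPM in Chd5-/- cultures. One Chd5-/- sample lay below and the other above both +/+ samples, and the difference of -0.20 (standard error 0.58) was 0.66 without Chd5-/- replicate 1 and -1.05 without Chd5-/- replicate 2.

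Hes5 (chromosome 4, 154960923 to 154962371, plus strand), the target that most closely follows Notch activity in embryonic progenitors, had the widest range of all members. It stood at 8.52 and 3.13 TPM in +/+ NSCs, and at 1.16 and 43.69 TPM in Chd5-/- NSCs. The lowest and the highest value were thus both from Chd5-/- cultures, which differed by 37.7-fold, against 2.72-fold between the +/+ cultures. The mean difference of 0.65 had a standard error of 1.43 (adjusted p = 0.801 with limma), and it was -1.54 with Chd5-/- replicate 1 alone and 2.83 with replicate 2 alone. Within samples, Hes1 was 5.41-fold and 12.5-fold above Hes5 in the +/+ samples and 27.6-fold above it in Chd5-/- replicate 1, but Hes5 was 2.09-fold above Hes1 in Chd5-/- replicate 2. The order of these repressors was thus reversed in 1 culture. The upstream sequence of Hes5 is shown because the gene had the widest spread and is a direct target of Rbpj. The 250 bases before its RefSeq start site (GRCm38.p6, chr4:154960673-154960922, plus strand) are given with the Rbpj word GTGGGAA, or its reverse complement, in capitals.
Hes5 upstream: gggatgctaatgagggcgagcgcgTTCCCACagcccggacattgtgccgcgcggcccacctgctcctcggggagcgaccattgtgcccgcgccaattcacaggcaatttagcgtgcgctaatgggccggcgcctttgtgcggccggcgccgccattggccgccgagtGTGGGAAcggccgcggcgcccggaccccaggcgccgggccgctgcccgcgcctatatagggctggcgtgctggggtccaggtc
The word begins 83 bases before the start on the plus strand and is found again, on the minus strand, from 226 to 220 bases before the start. Promoters of 8 of the 10 members, in 10 entries, were found in the RefSeq table, those of Hes1 and Hey1 excepted. Of these 10 entries 1, that of Hes5, had the word within 250 bases on either strand, and 5.42% of all 32851 promoters had it. The N-box CACNAG, to which Hes proteins bind, was in the windows of Notch1, Notch2 and Notch3, with no overlap with the other word, and in 36.7% of all promoters. A match of letters is not a site of binding, and nothing about binding was measured here.

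Receptors, Delta-like ligands and 2 of the targets were higher in one Chd5-/- culture than in the other. In Chd5-/- replicate 2, 6 of 10 members (Notch1, Notch2, Dll1, Dll3, Hes5 and Hey1) were higher than in replicate 1 by at least 1 in log2(TPM + 1), and 0 were lower by as much. Over all rows tested these shares were 8% and 8.87%. The median of replicate 2 minus replicate 1 was 1.31 for the members and 0.0021 for all rows. Between the +/+ cultures only Hes5 differed by as much, with replicate 1 the higher one, as for 2.08% of all rows, and 0 members were higher in replicate 2 by as much, as 1.97% of all rows were. Jag1, Hes1 and Rbpj were the members that were not higher in Chd5-/- replicate 2. With 1 culture on each side, these comparisons have no test.

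**Figure D3:**
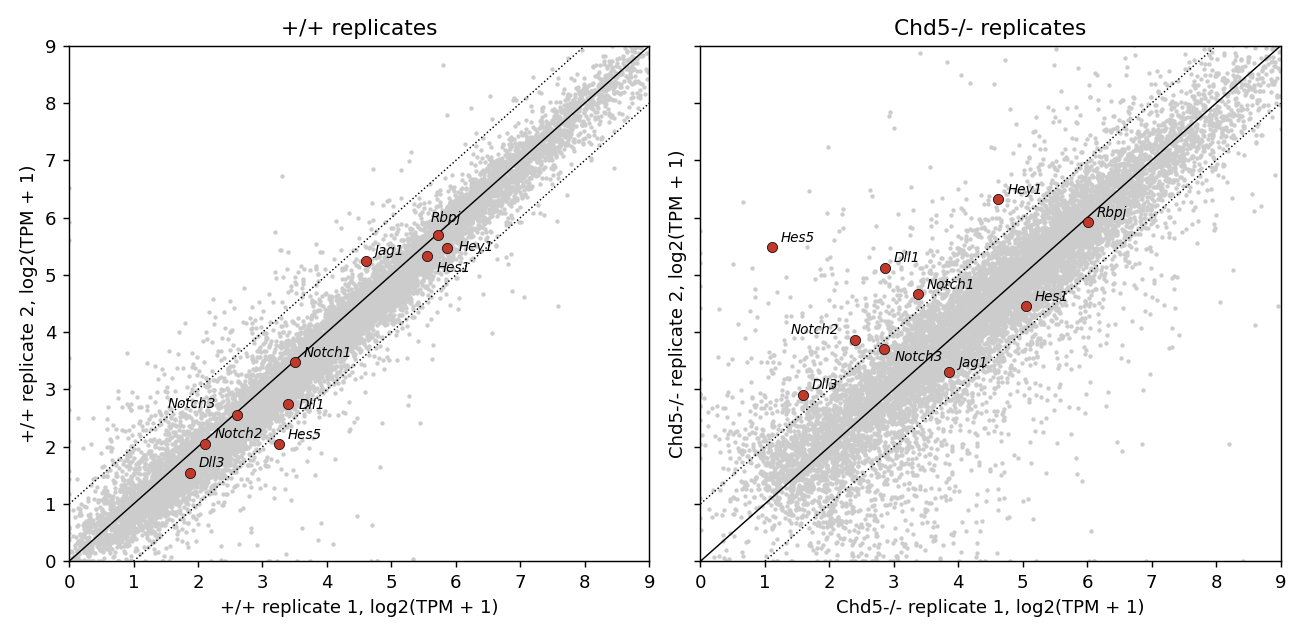
Replicate 2 against replicate 1 in log2(TPM + 1) for the +/+ cultures (left) and the Chd5-/- cultures (right), with all rows tested in grey (rows beyond the axes are not drawn) and the 10 members in red. The solid line marks equal values and the dotted lines a difference of 1. On the right 6 members lie above the upper dotted line, Hes5 farthest, and on the left only Hes5 lies beyond a dotted line.

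The likeness of the members was measured by the distance between their centred log2(TPM + 1) values over the 4 samples. Notch1 and Dll3 were the closest pair (distance 0.21), and Notch3 (0.35) and Notch2 (0.54) were nearest to Notch1. Dll1 was nearest to Notch2 (0.71) and Hes5 to Dll1 (1.56), and Hey1 was nearest to Dll3 (0.78). Jag1 and Hes1 were nearest to each other (0.90) and Jag1 was farthest from Hes5 (4.22). With 4 samples this describes the values and cannot be tested.

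The identity of the cultures was checked with marker genes. Of 9 neural stem and progenitor markers, 8 were at 1 TPM or more in all 4 samples. The sum of all 9 was 9840.26 and 8163.15 TPM for +/+ cultures against 3961.49 and 6862.51 TPM for Chd5-/- cultures. Most of it was Fabp7, Slc1a3 and Vim, which like Sox2 and Sox1 had lower means in Chd5-/- cultures. The means of Pax6, Egfr and Prom1 were higher there, and that of Nes was alike (79.0 TPM in +/+ and 77.8 TPM in Chd5-/- cultures). Pax6, Prom1, Sox1 and Nes overlapped between genotypes. In Chd5-/- replicates 1 and 2, Pax6 was at 12.98 and 54.41 TPM, Prom1 at 45.27 and 3.20 TPM and Sox1 at 11.80 and 41.76 TPM. Sox2 was at 200.69 and 432.19 TPM and Egfr at 147.21 and 324.03 TPM there. In log2(TPM + 1) the difference of Pax6 was -0.10. The neuronal markers summed to between 371.77 and 797.02 TPM, nearly all of it Map2, while the defining gene Rbfox3 was under 1 TPM in every sample. The microglial gene Aif1 was at no more than 0.17 TPM, and the other 4 microglial markers were not analysed here. In Chd5-/- replicate 1 the 4 fibroblast markers summed to 11.95 TPM, nearly all of it Col3a1 (7.41 TPM) and Dcn (4.17 TPM), while Col1a1 was listed at 0. The 5 mural markers summed to 10.64 TPM there, nearly all of it Acta2 (9.55 TPM), and the other mural markers were under 1 TPM in that culture. In the other samples the fibroblast and mural sums were no more than 0.13 and 1.74 TPM. The 5 astrocyte markers summed to 258.30 and 623.34 TPM in +/+ cultures against 443.32 and 747.80 TPM in Chd5-/- cultures, so that the genotypes overlapped. Of these, Gfap, picked after its values were seen, was at 0.71 TPM in Chd5-/- replicate 1 and from 13.89 to 19.66 TPM in the other samples. The oligodendrocyte lineage markers summed to 570.92 and 631.07 TPM in +/+ cultures against 504.42 and 927.88 TPM in Chd5-/- cultures, and all 7 were at 1 TPM or more throughout. All of them but Olig2 were highest in Chd5-/- replicate 2, the same culture as for Hes5 and Dll1. Olig2 was at 190.31 TPM in Chd5-/- replicate 1 and 169.68 TPM in replicate 2. The neuronal and astrocyte sums were also highest in Chd5-/- replicate 2, at 797.02 and 747.80 TPM, while the stem and progenitor sum was not. Pdgfra and Sox10 were picked here after their values were seen. Pdgfra, the receptor of oligodendrocyte precursors, measured 13.02 and 1.84 TPM in +/+ cultures, compared with 2.98 and 22.75 TPM in Chd5-/- cultures, and Sox10, a regulator of that lineage, followed with 6.04 and 1.46 TPM against 1.23 and 9.37 TPM. The part of these cell types in the values of Hes5, Dll1 and Dll3 was not tested.

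The rest of the pathway was described with a list of 62 further genes, of which 61 had a row and 52 were tested. At an unadjusted p-value under 0.05, 16 of the 52 were higher in Chd5-/- NSCs, where 21.9% of all rows were, and 0 were lower, where 2.27% of all rows were. None passed the adjusted threshold (smallest adjusted p = 0.120 with limma). Their median difference was 0.54, beside 0.34 for all rows, and it was 0.15 after median-of-ratios scaling and -0.012 with GC and length trends removed. Their split by direction depended on the scaling. After median-of-ratios scaling 9 of the 16 were still higher at that level (11.1% of all rows were higher) and 6 other genes were lower (12% of all rows), namely Adam10, Adam17, Poglut1, Itch, Fbxw7 and Kat2b. With GC and length trends removed 4 of the 16, Aph1b, Numbl, Dtx3 and Cir1, were still higher (5.29% of all rows) and 3 other genes, Ctbp1, Ctbp2 and Ncor1, were lower (6.01% of all rows). Poglut1, Fbxw7, Ctbp1 and Ctbp2 are named here after their values were seen. The number also depended on single cultures, since it could be lower or higher with 1 sample left out. Shares of all rows at that level are not given here for those fits.

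The remaining receptor and ligands were hardly detected. Notch4, the endothelial receptor, was at no more than 0.29 TPM. Dll4, the endothelial Delta-like ligand, reached 1.19 TPM in Chd5-/- replicate 1 and was at no more than 0.36 TPM elsewhere, and Jag2 was at no more than 0.15 TPM. Of the non-canonical ligands, Dner had 25.03 and 75.45 TPM in +/+ cultures against 27.33 and 108.26 TPM in Chd5-/- cultures, whereas Dlk1 and Dlk2 were at no more than 0.46 TPM. In the Hes and Hey family, Hes2, Hes7 and Heyl were at no more than 0.38 TPM and Hey2 at no more than 2.79 TPM, and Hes3 was not analysed here. Hes6, a Hes protein known to oppose Hes1, stood at 10.91 and 9.66 TPM in +/+ NSCs, and at 24.28 and 27.52 TPM in Chd5-/- NSCs. It was higher in both Chd5-/- samples, with a difference of 1.25 (standard error 0.25, unadjusted p = 0.00347, adjusted p = 0.120 with limma), or of 0.26 with GC and length trends removed.

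In the ligand-sending cell, ubiquitin ligases drive the endocytosis of ligands that pulls on the receptor. Mib1, the main such ligase in the developing brain, measured 130.71 and 152.20 TPM in +/+ cultures, compared with 179.25 and 227.12 TPM in Chd5-/- cultures (difference 0.51, adjusted p = 0.258 with limma). Neurl1b had a difference of 1.24 (unadjusted p = 0.0145 with limma), or of 0.52 with GC and length trends removed. Neurl1a, with 2.31, was at 0.24 TPM or listed at 0 in +/+ cultures and had 12.86 and 1.19 TPM in Chd5-/- cultures, so that replicate 1 set the value, and Mib2 had a difference of 0.82. All 4 genes of this group were higher in both Chd5-/- samples, as 46.3% of all rows were. After median-of-ratios scaling the difference of Mib1 was 0.10. The difference of Mib2 was -0.16 once trends with GC content and length had been removed.

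In the receiving cell, 4 of 14 tested genes of receptor cleavage and maturation were higher at an unadjusted p-value under 0.05, where 21.9% of all rows were. Psenen, a subunit of gamma-secretase, had 80.69 and 57.34 TPM in +/+ cultures against 153.18 and 173.52 TPM in Chd5-/- cultures (difference 1.25, unadjusted p = 0.00419 with limma). Its partner subunit Aph1b had a difference of 0.64, the protease Furin one of 1.06 and the glycosyltransferase Rfng one of 1.12. Once GC and length trends had been removed, the differences came to 0.43 for Psenen, 0.31 for Furin and 0.14 for Rfng, none of them with an unadjusted p-value under 0.05 from limma. The sheddase Adam10, the most abundant of the group, stood at 240.90 and 289.37 TPM in +/+ NSCs, and at 175.73 and 196.31 TPM in Chd5-/- NSCs (difference -0.51, unadjusted p = 0.0734 with limma), and Adam17 had a difference of -0.40. Both proteases were lower without overlap between genotypes, as 13% of all rows were. After median-of-ratios scaling the difference was -0.92 for Adam10 (unadjusted p = 0.0150 with limma) and -0.81 for Adam17 (unadjusted p = 0.0184 with limma). With GC and length trends removed it was -0.43 for Adam10 (unadjusted p = 0.0949 with limma) and -0.46 for Adam17 (unadjusted p = 0.0872 with limma).

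Of 10 genes of receptor turnover and inhibition, 4 were higher at that level, beside the same 21.9% of all rows. Dtx3, a ubiquitin ligase of the Deltex family, had the lowest p-value of the list, with 29.26 and 17.73 TPM in +/+ cultures against 163.45 and 254.46 TPM in Chd5-/- cultures (difference 3.11, standard error 0.36, unadjusted p = 0.000260, adjusted p = 0.120 with limma). With GC and length trends removed the difference was 2.13. Dtx1 (0.98) and Dtx2 (0.99) of the same family and Numbl, a relative of the Notch inhibitor Numb (1.52), were the others, each under 10 TPM. For Dtx1 the difference was -0.0080 with the trends removed. The ubiquitin ligases Nedd4 (difference 0.33) and Itch (-0.30) were abundant and did not pass. Among coactivators, Maml3, which joins the Rbpj complex, had a difference of 1.30 at no more than 2.94 TPM, or of 0.69 with the trends removed. The more abundant Snw1 (0.14), Maml2 (0.0079) and Kat2b (-0.32) did not pass. Among the corepressors, Aes (1.21), Tle3 (0.93) and Cir1 (0.66) were higher at an unadjusted p-value under 0.05, while Hdac2 (-0.18) and Ncor1 (-0.14), both abundant, did not pass.

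**Figure D4:**
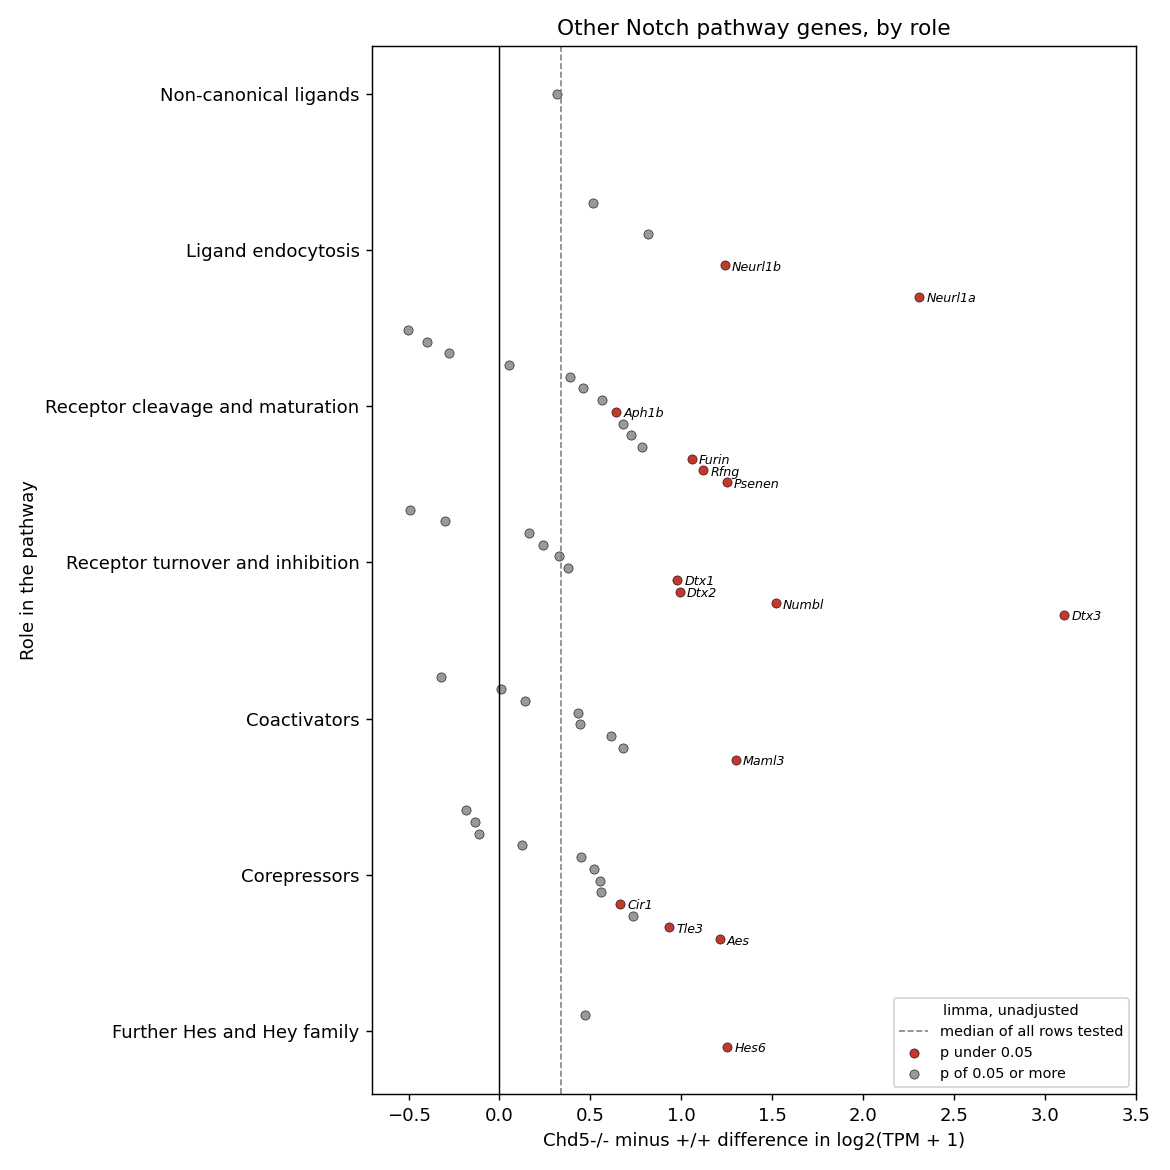
Difference between Chd5-/- and +/+ in log2(TPM + 1) for the further pathway genes reported here, 1 point per gene in rows by role. Red points have an unadjusted p-value under 0.05 from limma as deposited and all lie above 0, with Dtx3 at 3.11, and the dashed line is the median of all rows tested, 0.34.

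In the wider list the gap between the Chd5-/- cultures reached 1 in log2(TPM + 1) for 6 of the 52 genes. Of these, 4 were higher in replicate 2 (8% of all rows were), Dner, Nrarp and Tle4 among them, and 2 were higher in replicate 1 (8.87% of all rows), Neurl1a and Hey2. The first share is near that of all rows, and the second is below it. Nrarp and Tle4 were named after their values were seen. Nrarp, a direct Notch target that limits signalling, measured 37.70 and 14.75 TPM in +/+ cultures, compared with 11.57 and 59.83 TPM in Chd5-/- cultures. It had the same order of samples as Hes5, with Chd5-/- replicate 2 highest, +/+ replicate 1 next and Chd5-/- replicate 1 lowest.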

How the data were processed

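RNA-seq of 2 +/+ and 2 Chd5-/- NSC cultures was analysed from 1 table of TPM values that the authors deposited, with 2 decimals and 1 row per gene name. Libraries were stranded and made from mRNA. The submitters' processing notes name Bowtie2 2.2.3, RSEM 1.2.20 and the mm10 build, without their roles. The gene annotation is not given in the sources used here. Every column was assigned by its name. TPM are relative values without read numbers, so no counting error can be given, and no count test was used.

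From these values log2(TPM + 1) was computed, which understates the change of low genes. Genotypes were compared without covariates by limma (version 3.58.1, under R 4.3.3), using two-sided moderated tests with a trend, for the 12576 rows whose mean reached 1 TPM, and Benjamini-Hochberg adjustment covered all of these. The scripts were tested on simulated data. Other settings tried were pseudocounts of 0.1 and 5, a minimum of 10 TPM or none, scaling by median of ratios, by quantiles or by the total without its 20 most abundant rows, loess removal (span 0.5) of trends with GC content and length, available for 96.2% of the rows tested, a replicate block, eBayes without the trend, and leaving out each sample. Positions, GC content and length of the longest transcript were from GENCODE release M21 of GRCm38, and promoters from RefSeq. Members and lists were chosen with earlier results of these data known. Other pathway genes were named if their unadjusted p-value was under 0.05, if they were among the 3 most abundant of their role, or if they were receptors, ligands or Hes and Hey genes under 1 TPM, and a gene that falls under this rule is not reported here. Tables and figures were made with Python 3.11.15, pandas 2.3.3 and matplotlib 3.10.9.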

Additional observations from a re-analysis of the deposited data

How the results depend on the processing

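No member passed the adjusted threshold in the alternatives with all 4 samples. That changed for Notch2, Dll1 and Hes5 without Chd5-/- replicate 1, where far more of all rows passed too, in either direction. In fits with 1 sample left out a lone sample is assumed to vary like the other genotype. For these fits no share of all rows with an unadjusted p-value under 0.05 from limma is given. Their counts at that level, of members and of other pathway genes, therefore cannot be set against all rows and do not set these genes apart. The number of members with an unadjusted p-value under 0.05 was 1, became 2 after median-of-ratios scaling, quantile normalization, rescaling or removal of GC and length trends, with or without the replicate block, and was 0 to 9 with 1 sample left out. The median difference of the members was -0.36 with these trends removed, with or without the block, and -0.17 to 1.15 with 1 sample left out. The number of other pathway genes with an unadjusted p-value under 0.05, 16 and all higher, was 7 with a minimum of 10 TPM, which left 36 genes to test, 7 with quantile normalization (5 higher and 2 lower), 7 with trends removed (4 higher and 3 lower), 3 with trends removed and the replicate block (1 higher and 2 lower), 12 with the block alone, and 5 to 25 with 1 sample left out. The cause of the other changes was not tested.

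Of 610 values of 39 named genes, 572 kept their direction. This count includes settings that cannot move a difference, namely a replicate block, eBayes without the trend and a changed minimum TPM. It is therefore no measure of how stable the directions are. With GC and length trends removed, with or without the block, Notch1 was at -0.36, Notch3 at -0.28, Dll3 at -0.44, Hes5 at -0.37, Dner at -0.25, Dtx1 at -0.0080, Maml2 at -0.19 and Mib2 at -0.16. After median-of-ratios scaling Rbpj was at -0.16, Dner at -0.089, Maml2 at -0.40, Nedd4 at -0.088 and Snw1 at -0.27. After quantile normalization Dll3 was at -0.13, Hey2 at -0.057 and Maml2 at -0.15, and after rescaling Maml2 was at -0.23 and Snw1 at -0.096. With 1 sample left out the ranges that crossed 0 were -0.12 to 1.17 for Notch1, -0.21 to 2.06 for Dll1, -0.12 to 1.20 for Dll3, -1.54 to 2.83 for Hes5, -1.05 to 0.66 for Hey1 (0.0021 without +/+ replicate 1), -0.66 to 1.29 for Dner, -0.085 to 1.03 for Hey2, -0.26 to 0.27 for Maml2 and -0.28 to 0.0085 for Ncor1.

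The replicate numbers are not stated to mark shared litters or batches, and the differences between replicates correlated at -0.15 across rows between the genotypes. With the replicate block 0 of all rows tested passed the adjusted threshold, and with the crossed pairing, which was added after the data were seen, 5 did, against 7 without a block. Depth is unknown, so values near 0 TPM cannot be told from absence.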
